A study of Arabidopsis thaliana with 4 samples.

Results

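A set of 5 genes of root cap maturation and developmental cell death was followed in roots of the nlp7-1 mutant and of wild-type Arabidopsis thaliana. They are the root cap polygalacturonase gene RCPG (AT1G65570) and the developmental cell death markers PASPA3 (AT4G04460), SCPL48 (AT3G45010), EXI1 (AT2G14095) and DMP4 (AT4G18425). The genes were chosen by name, and each had 1 probe set annotated to it alone, which gave 5 of the 22746 non-control probe sets of the array and 5 of 13286 genes named there. The 2 nlp7-1 samples carried the nlp7-1 allele of NLP7, a transcription factor gene of nitrate signalling, in the Col-0 accession, and the 2 wild-type samples were Col-0. Both genotypes were untreated and grew on 1x MS agar at pH 5.7 and 22 °C under 16 h days. Whole roots labelled 5 dai were cut off at the hypocotyl, and each sample pooled about 60 roots. The series measured transcript levels on 4 Affymetrix ATH1 arrays, deposited as MAS5 signals (linear, arbitrary units). A single mutant allele was studied, so an effect of the allele and one of its genetic background cannot be told apart.

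The root cap covers the tip of the root and renews itself from the inside outwards. NAC transcription factors of the SMB, BRN1 and BRN2 group direct the maturation of its outer layers. In Arabidopsis the outermost layer at the tip loosens its pectin and detaches as border-like cells, a step in which RCPG acts by cutting pectin. Lateral root cap cells that reach the elongation zone die by a developmental programme, and PASPA3, SCPL48, EXI1 and DMP4 belong to a set of transcripts that accumulate in cells preparing for such death, in the root cap and in other tissues such as xylem. In roots the mutant is of interest because NLP7 is known to affect the release of border-like cells, so the comparison asks whether transcripts of cap maturation differ between nlp7-1 and wild type. The cap is a small fraction of a whole root, and in such bulk samples fewer cells of a type and less RNA per cell cannot be told apart.

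The mutated gene NLP7 had no probe set named for it alone and was not analysed here, so the genotype labels have no check of that kind. All 4 arrays had the same trimmed mean signal, 250.0. The median signal was 99.6 and 99.3 in nlp7-1 and 101 and 97.5 in wild type. The ratio of 3' to 5' signal of an actin control, a sign of RNA integrity, was 12.3 and 12.6 in nlp7-1 and 9.88 and 15.0 in wild type, so wild type replicate 2 had the highest ratio. The other actin pair also had its highest ratio in that sample, with 2.23 and 2.49 in nlp7-1 and 1.97 and 2.75 in wild type. The GAPDH ratio was 1.28 and 1.57 in nlp7-1 and 1.37 and 1.28 in wild type. The ubiquitin ratio was 2.64 and 2.89 in nlp7-1 and 2.72 and 2.68 in wild type, so these controls did not single out that sample.

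Of the 5 genes, SCPL48 had signal far above the background of the array, while RCPG and EXI1 were close to it. In wild type replicate 2 both RCPG and EXI1 lay below the 40th percentile of that array. None of the 5 differed between the genotypes in the test across all probe sets (limma on log2 signal, Benjamini-Hochberg adjusted p under 0.05), where 2.27% of the 13648 probe sets kept by a filter on low signals did. RCPG had the largest difference of the 5, 1.92-fold higher in nlp7-1. Its geometric mean signal was 104 in nlp7-1 and 54.3 in wild type, on either side of the filter's limit of 59.4 for the mean of the 4 samples, so it was kept through the nlp7-1 samples. RCPG was also the only one whose genotypes did not overlap, as was the case for 44.1% of all kept probe sets. The other 4 genes had fold changes between 0.994 and 1.12. In all 5 genes wild type replicate 2 had the lowest signal of the 4 samples, which held for 30.7% of all kept probe sets.

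RCPG encodes a pectin-cutting enzyme of the detaching cap. Its signal was 119 and 91.4 in the nlp7-1 samples, against 74.4 and 39.6 in the wild-type samples. Both mutant samples lay above both wild-type samples, and wild type replicate 2 stood well below the other 3. The mean was 105 ± 20 in nlp7-1 and 57.0 ± 24.6 in wild type (SD, n = 2 each). The log2 change was 0.94 ± 0.32 (SE), with a 95% interval of 1.12- to 3.30-fold. Its unadjusted p in limma was 0.0245 and its adjusted p 0.280, so the difference did not pass. At an unadjusted p under 0.05, 13.2% of all kept probe sets passed. With 2 samples per genotype an exact two-sided permutation test of a single gene cannot give a p below 0.333.

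The size of the RCPG difference depended on which wild-type sample was used. Against wild type replicate 1, the log2 ratio was 0.68 for nlp7-1 replicate 1 and 0.30 for nlp7-1 replicate 2. Against wild type replicate 2, the ratios were 1.59 and 1.21. On this scale wild type replicate 2 minus wild type replicate 1 was -0.91, about the size of the genotype difference. Leaving out wild type replicate 2 brought the log2 change to 0.49. When wild type replicate 1 was left out instead, it was 1.40. Either fit leaves 1 wild-type sample, so only the size of the change is given and no test outcome is read from it. Among the 500 kept probe sets nearest to RCPG in mean signal, the SD of the difference between replicates was 0.34 in nlp7-1 and 0.39 in wild type. Without the filter on low signals the log2 change of RCPG was the same and its limma adjusted p was 0.384. The log2 change fell to 0.65 with a pseudocount of 32 and to 0.39 with a pseudocount of 100.

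PASPA3 encodes a putative aspartic protease and is widely used as a reporter of developmental cell death. Its signal was 81.5 and 119 in nlp7-1, against 105 and 74.5 in wild type. The genotypes overlapped, with the highest value in nlp7-1 replicate 2 and the lowest in wild type replicate 2. The log2 change was 0.16 ± 0.26 (SE; limma adjusted p = 0.849), with a 95% interval of 0.728- to 1.71-fold. The 2 mutant samples differed by 0.55 on the log2 scale, more than in any of the other 4 genes. Leaving out nlp7-1 replicate 2 turned the log2 change to -0.12, and leaving out wild type replicate 2 turned it to -0.088.

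SCPL48 encodes a serine carboxypeptidase-like protein. Its signal was 919 and 782 in nlp7-1, against 906 and 709 in wild type. In each genotype replicate 1 was the higher, and the ranges of the genotypes overlapped. The means were 850 ± 97 in nlp7-1 and 808 ± 139 in wild type (SD, n = 2 each). The log2 change was 0.08 ± 0.16 (SE; limma adjusted p = 0.876). Its 95% interval, 0.814- to 1.37-fold, was the narrowest of the 5 on the log2 scale. Its sign also depended on single arrays, at -0.096 when wild type replicate 2 was dropped and -0.036 when nlp7-1 replicate 1 was.

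EXI1 is a marker of dying cells. Its signal was 71.9 and 76.0 in nlp7-1, against 85.3 and 53.9 in wild type. Both mutant samples lay between the 2 wild-type samples. The log2 change was 0.13 ± 0.25 (SE; limma adjusted p = 0.882), with a 95% interval of 0.713- to 1.67-fold. It turned to -0.21 without wild type replicate 2.

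DMP4 belongs to a family of membrane proteins with a DUF679 domain. Its signal was 171 and 154 in nlp7-1, against 189 and 141 in wild type. As in EXI1, the mutant samples lay between the wild-type samples. The means were 162 ± 11 in nlp7-1 and 165 ± 34 in wild type (SD, n = 2 each). The log2 change was -0.0089 ± 0.17 (SE; limma adjusted p = 0.989), with a 95% interval of 0.742- to 1.33-fold. Dropping wild type replicate 1 gave 0.20 and dropping nlp7-1 replicate 2 gave 0.063. The 95% intervals of PASPA3, SCPL48, EXI1 and DMP4 reach 1.33-fold or more upwards and 0.814-fold or less downwards, so the tests do not show equal levels.

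**Figure D1:**
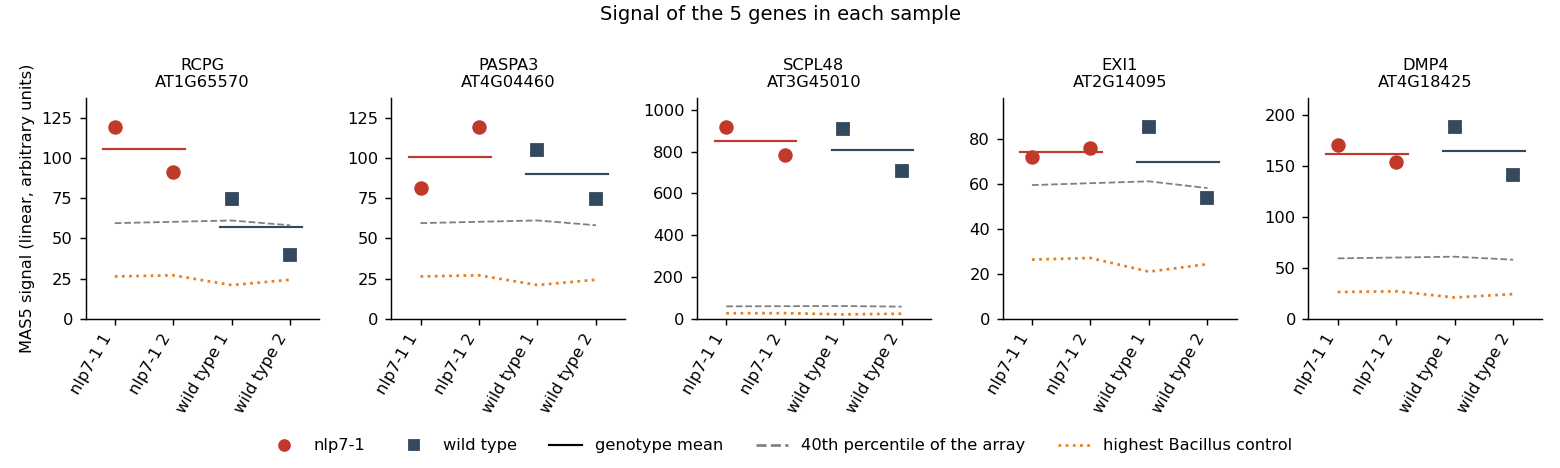
MAS5 signal (linear, arbitrary units) of the 5 genes in each of the 4 samples, with the 2 nlp7-1 samples as circles, the 2 wild-type samples as squares and a line at each genotype mean. The dashed line is the 40th percentile of each array and the dotted line its highest Bacillus control. RCPG alone shows no overlap between genotypes, and wild type replicate 2 is lowest in every panel.

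Signal was then set against background, because low MAS5 signals carry little information. No detection calls were used. The main gauge was the 40th percentile of each array, at 59.4 and 60.2 in nlp7-1 and 61.1 and 58.1 in wild type. A harder floor came from 27 control probe sets for Bacillus genes, which no root transcript should match. Their highest signal was 26.3 and 27.0 in nlp7-1 and 20.9 and 24.3 in wild type, and their median was 9.75 and 8.75 in nlp7-1 and 11.6 and 11.2 in wild type. Probe sets differ in how strongly they bind, so these ratios place each gene against background and give no order of abundance among the 5.

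All 20 values of the 5 genes lay above the highest Bacillus control of their array, and 18 lay above the 40th percentile. The exceptions were RCPG and EXI1 in wild type replicate 2, at 0.682 and 0.928 times that level. RCPG was at 2.01 and 1.52 times the level in nlp7-1 and at 1.22 times in wild type replicate 1. EXI1 was at 1.21 and 1.26 times in nlp7-1 and at 1.40 times in wild type replicate 1. PASPA3 was at 1.37 and 1.98 times in nlp7-1 and at 1.72 and 1.28 times in wild type. DMP4 was at 2.87 and 2.56 times in nlp7-1 and at 3.09 and 2.43 times in wild type. SCPL48 stood well apart from these low signals, at 15.5 and 13.0 times in nlp7-1 and 14.8 and 12.2 times in wild type.

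The position within each array shows the same. The RCPG signal stood at the 54.0th and 48.2nd percentile of the probe sets in nlp7-1 and at the 43.6th and 33.4th in wild type. SCPL48 stood between the 89.5th and 92.0th percentile in all 4 arrays. The gene with the largest difference between genotypes was therefore also among those nearest to background. RCPG in wild type replicate 2 was 1.63 times the highest Bacillus control of that array. It lay below the brightest of 5 loci listed as flower, pollen or seed genes, which reached 47.6 there. That list came from general knowledge, and no annotation used here checks it.

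The 5 genes shared 1 feature across the samples, a low value in wild type replicate 2. Relative to wild type replicate 1, the signal in wild type replicate 2 was 53.2% for RCPG and 63.1% for EXI1. It was 71.1% for PASPA3, 74.7% for DMP4 and 78.3% for SCPL48. On the log2 scale the differences were -0.66 for EXI1, -0.49 for PASPA3, -0.42 for DMP4 and -0.35 for SCPL48. Among the 500 probe sets nearest in signal, the SD of the wild-type replicate difference was 0.40, 0.32, 0.31 and 0.28 in that order. Each of these 4 drops was thus not far beyond the usual spread at its level. Wild type replicate 2 was the lowest sample in 5 of 5 genes, against 30.7% of all kept probe sets, and it was below wild type replicate 1 in 51.3% of all kept probe sets. Among the 500 probe sets nearest in signal to each gene, that sample was the lowest in 27.4% to 34.4%. The highest sample was not shared: it was nlp7-1 replicate 1 for RCPG and SCPL48, nlp7-1 replicate 2 for PASPA3, and wild type replicate 1 for EXI1 and DMP4. The part of RNA quality in this pattern was not tested, although the actin ratios were highest in the same sample.

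**Figure D2:**
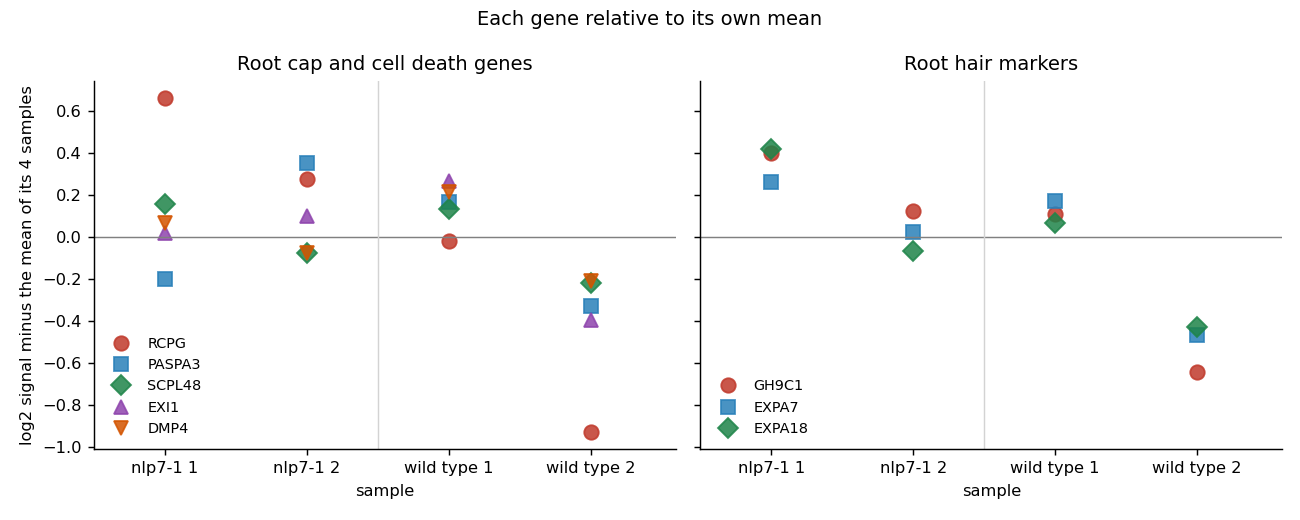
Log2 signal of each gene minus the mean of its 4 samples, for the 5 root cap and cell death genes (left) and for 3 root hair markers (right), with 1 point per gene and sample. Wild type replicate 2 holds the lowest point of every gene in both panels, at -0.93 for RCPG and between -0.39 and -0.21 for the other 4 genes on the left.

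Markers of other root cell types were read in the same samples. Of 11 root hair markers 3 had a named probe set, GH9C1, a cellulase gene, and the expansin genes EXPA7 and EXPA18, and all 3 were lowest in wild type replicate 2. Their summed signal was 1648 and 1312 in nlp7-1 and 1402 and 911 in wild type. None of the 3 passed the limma test (adjusted p = 0.439, 0.643 and 0.565), against 2.27% of all kept probe sets. At an unadjusted limma p under 0.05, 0 of the 3 passed, against 13.2% of all kept probe sets. EXPA7 turned from a log2 change of 0.29 to -0.03 without wild type replicate 2. GH9C1, at a log2 change of 0.53, was at 0.90 without wild type replicate 1 and at 0.15 without wild type replicate 2. The part of these cells in the RCPG difference was not tested.

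The endodermis markers ran the other way. GSO1, a receptor kinase gene of the endodermal barrier, and AT1G61590, 2 of 9 listed, had their highest value in wild type replicate 2. Their summed signal was 1402 and 1359 in nlp7-1 and 1433 and 1661 in wild type. Of 14 shoot markers 3 were measured, and their sum was 664 and 793 in nlp7-1 and 813 and 1009 in wild type. LHCB4.1, a light-harvesting gene, had a log2 change of -0.64 ± 0.21 (SE; limma adjusted p = 0.265). It was at -0.90 without wild type replicate 1 and at -0.39 without wild type replicate 2. None of the 12 xylem markers had a named probe set, so cell death genes of the cap and of xylem could not be set apart.

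**Figure D3:**
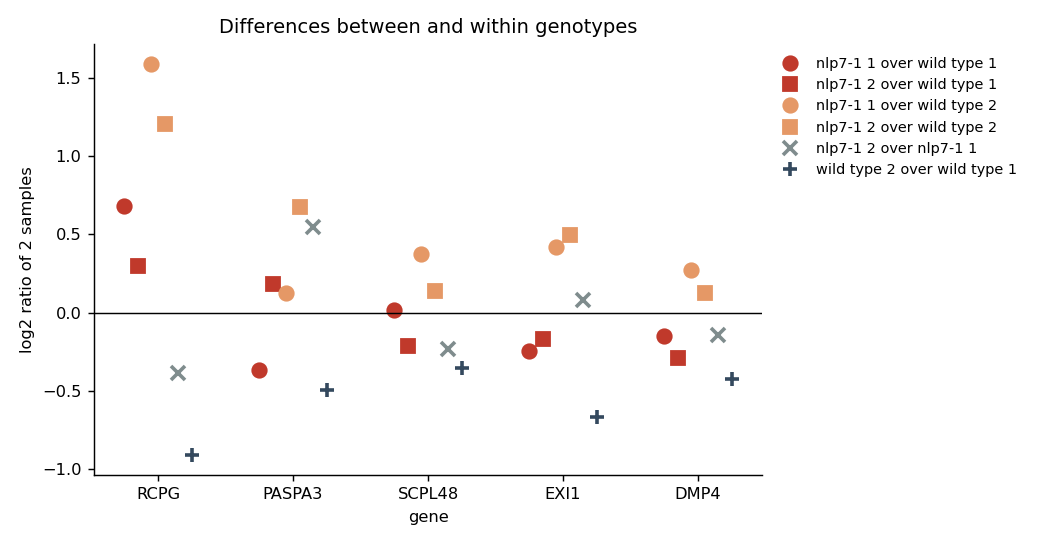
Log2 ratio of 2 samples for each gene, with the 4 ratios of an nlp7-1 over a wild-type sample and the ratio of the replicates within each genotype. All 4 between-genotype ratios of RCPG lie above 0, from 0.30 to 1.59, while those of each of the other 4 genes lie on both sides of 0.

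The list of root cap and developmental cell death genes from which the 5 come held 27 loci, of which 7 had a probe set named for them alone. The other 20, among them SMB, BRN1, BRN2, BFN1, RNS3, MC9 and NLP7, were not analysed here. Of the 7, 6 passed the filter, RCPG only through nlp7-1, and 0 were called in either direction, against 2.27% of all kept probe sets. Of the other 5, 1 had an unadjusted p under 0.05, against 13.2% of all kept probe sets. The median log2 change of these 5 was 0.13, against 0.00016 over all kept probe sets. The remaining kept locus, AT5G48940, had signals of 226 and 226 in nlp7-1, against 165 and 178 in wild type. Its genotypes did not overlap and its replicates lay close together, with a log2 change of 0.40 ± 0.12 (SE; limma adjusted p = 0.225). Unlike the 5 genes it was lowest in wild type replicate 1. ACR4, a receptor kinase gene that restrains divisions in the columella, had signals of 27.1 and 23.4 in nlp7-1 and 19.1 and 11.2 in wild type, below the filter.

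Among 23 loci listed as polygalacturonase genes, the family of RCPG, 17 had a named probe set and 7 passed the filter. The list was compiled from general knowledge, since the annotation used here gives these loci no function. Exactly 1 of the 7 rose, AT1G23460, against 1.64% of all kept probe sets called higher in nlp7-1. None of the 7 fell, against 0.63% called lower. Its signal was 219 and 209 in nlp7-1, against 127 and 104 in wild type, with no overlap. The difference was 1.86-fold, with a log2 change of 0.89 ± 0.15 (SE; limma adjusted p = 0.0399). The call was lost when low signals were not filtered out (limma adjusted p = 0.0689) and under a variance prior fitted without trend (0.0608). An unmoderated test lost it too (adjusted p = 0.437). Dropping nlp7-1 replicate 1 brought the log2 change of AT1G23460 to 0.86, and dropping nlp7-1 replicate 2 brought it to 0.93. Each of these fits leaves 1 mutant sample, so only sizes are given. Its probe set is of the type that can match several transcripts, and the gene lies in the stretch of chromosome 1 from AT1G20910 to AT1G27530, where many genes were higher in nlp7-1. RCPG lies on the same chromosome outside that stretch, with 2801 protein-coding genes between AT1G27530 and RCPG.

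The other polygalacturonase loci did not share a direction. AT2G43880 had 212 and 210 in nlp7-1, against 205 and 103 in wild type, so that again only wild type replicate 2 stood apart. Its log2 change was 0.54 ± 0.30 (SE; limma adjusted p = 0.521), and it was at 1.04 without wild type replicate 1. Without wild type replicate 2 it was at 0.044. AT2G43890, its neighbour in number, had 141 and 126 in nlp7-1, against 232 and 143 in wild type, with a log2 change of -0.45 ± 0.23 (SE; limma adjusted p = 0.481). It was at -0.80 without wild type replicate 2 and at -0.11 without wild type replicate 1. AT1G70500 had -0.52 ± 0.20 and AT1G02460 -0.16 ± 0.23, while AT3G59850 and AT1G80170 had 0.23 ± 0.27 and 0.13 ± 0.17. AT1G70500 had a geometric mean of 52.8 in nlp7-1 and passed the filter through wild type alone. Of the other 6, 4 were above 0 and 2 below. In 3 of the 7 wild type replicate 2 was the lowest sample, against 30.7% of all kept probe sets. The 10 loci below the filter had signals of 1.28 to 42.9.

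Among relatives of SCPL48, 29 of 49 serine carboxypeptidase-like genes had a named probe set and 16 passed the filter, SCPL48 included. None of the 16 was called, against 2.27% of all kept probe sets. SCPL46, with a geometric mean of 57.3 in wild type, passed the filter through nlp7-1 alone. Of the other 15, 2 had an unadjusted p under 0.05, against 13.2% of all kept probe sets. The median log2 change of these 15 was 0.10, with 11 above 0 and 4 below. SCPL31 had the largest difference, with signals of 123 and 91.6 in nlp7-1, against 178 and 225 in wild type. Both mutant samples were below both wild-type samples, with a log2 change of -0.92 ± 0.20 (SE; limma adjusted p = 0.0926). With 1 sample left out its log2 change ran from -1.13 to -0.71. SCPL25 and SCPL28 had log2 changes of -0.47 ± 0.20 and -0.20 ± 0.30. The highest were SCPL46, SCPL40 and SCPL29, with 0.60 ± 0.20, 0.45 ± 0.22 and 0.33 ± 0.12. In 7 of the 16 wild type replicate 2 was the lowest sample, against 30.7% of all kept probe sets.

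For the aspartic proteases, the class to which PASPA3 is assigned, 10 of 13 loci, also listed from general knowledge, had a named probe set and 8 passed the filter. None was called, against 2.27% of all kept probe sets. AT1G25510, with a geometric mean of 52.7 in wild type, passed the filter through nlp7-1 alone. Of the other 7, 3 had an unadjusted p under 0.05, against 13.2% of all kept probe sets. These were AT1G09750, AT3G54400 and AT5G10770, with log2 changes of 0.80 ± 0.20, 0.78 ± 0.21 and 0.47 ± 0.12 (SE; limma adjusted p = 0.153 to 0.174). AT3G54400 had signals of 997 and 842 in nlp7-1, against 660 and 430 in wild type. Dropping wild type replicate 1 raised its log2 change to 1.09, while dropping wild type replicate 2 lowered it to 0.47. AT1G25510, at 0.72 ± 0.24, lies in the chromosome 1 stretch named above. APA1 (AT1G11910), a vacuolar aspartic protease gene, had 5794 and 5374 in nlp7-1, against 5690 and 5700 in wild type, a log2 change of -0.03 ± 0.08. AT3G20015, AT3G52500 and AT2G03200 had 0.04 ± 0.17, 0.06 ± 0.19 and -0.13 ± 0.13. In 5 of the 8 wild type replicate 2 was the lowest sample, against 30.7% of all kept probe sets.

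Vacuolar processing enzymes are cysteine proteases that take part in several forms of plant cell death. GAMMA-VPE, a vegetative form, had 2102 and 2100 in nlp7-1, against 1688 and 1796 in wild type. The genotypes did not overlap, and the log2 change was 0.27 ± 0.09 (SE; limma adjusted p = 0.282). ALPHA-VPE and BETA-VPE had log2 changes of -0.18 ± 0.18 and -0.07 ± 0.24. DELTA-VPE, with signals of 22.7 to 35.2, was below the filter. With AT1G14220 (-0.04 ± 0.15), 5 of the 30 loci on this list of proteases and nucleases had a named probe set. Of these, 4 passed the filter and 0 were called, against 2.27% of all kept probe sets. The median log2 change of the 4 was -0.06. In 2 of the 4 wild type replicate 2 was the lowest sample, against 30.7% of all kept probe sets. Of the DMP family, DMP4 was the only 1 of 10 with a named probe set.

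**Figure D4:**
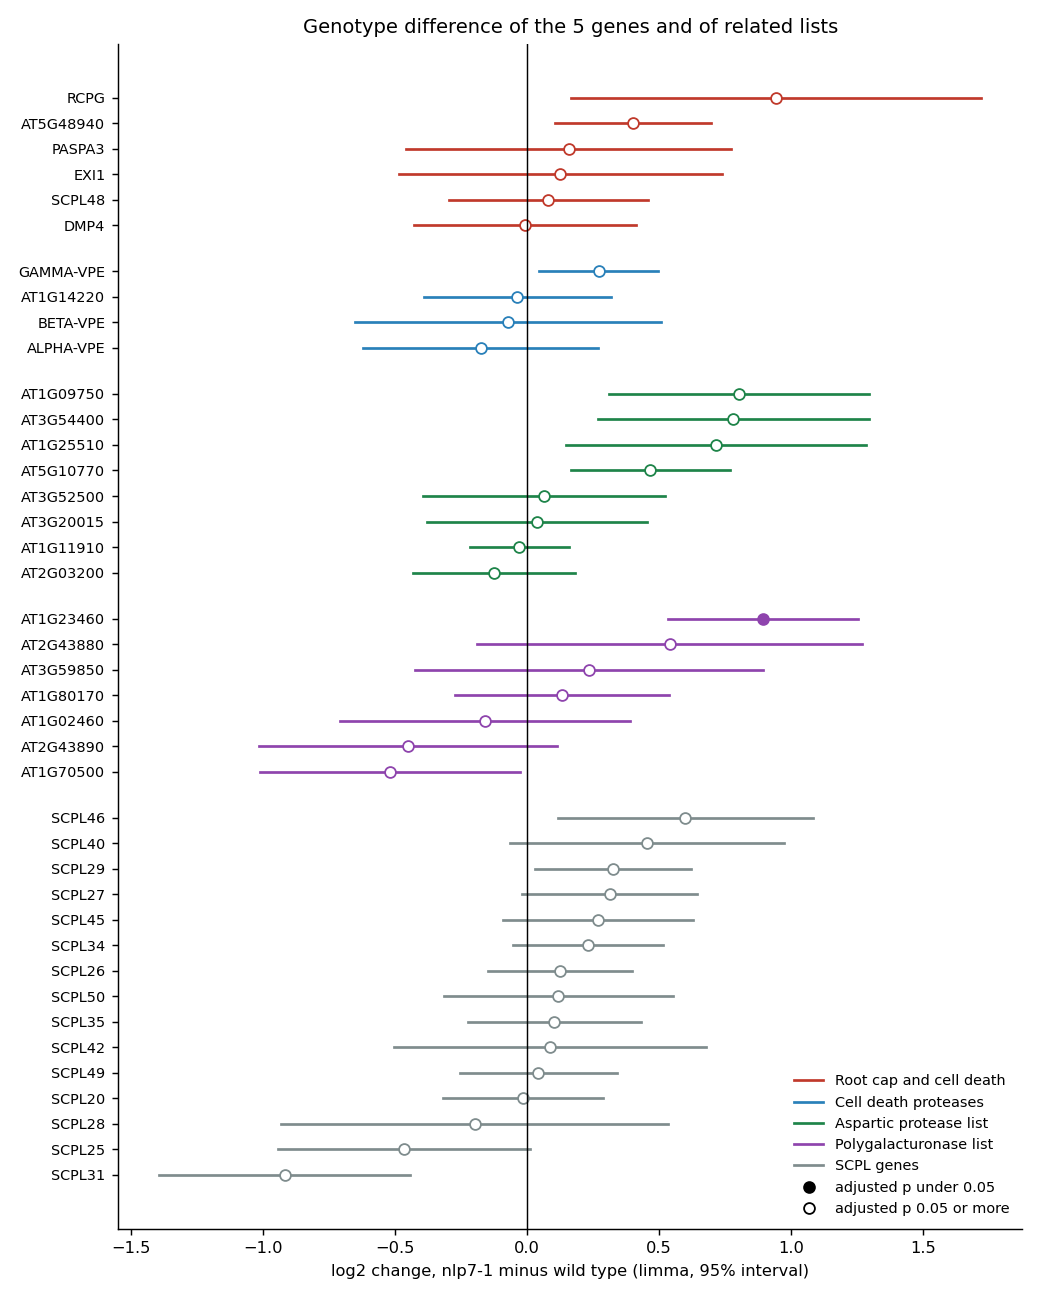
Log2 change (nlp7-1 minus wild type, limma) with its 95% interval for the root cap list, the lists of cell death proteases, aspartic proteases and polygalacturonases, and the other SCPL genes. Filled points passed at an adjusted p under 0.05, which held for AT1G23460 alone, and open points did not.

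Genes whose pattern over the 4 samples was most like that of RCPG were sought among 7370 named probe sets, by the Euclidean distance between log2 signals after taking out each gene's mean. Of these, 12 lay nearer than 0.3. The nearest was XTH19 (AT4G30290), a xyloglucan endotransglucosylase gene of wall remodelling, at a distance of 0.14. Its signal was 769 and 675 in nlp7-1, against 526 and 280 in wild type. Like RCPG it was lowest in wild type replicate 2 with no overlap between genotypes, here at a signal far above background, and its log2 change was 0.91 ± 0.28 (SE; limma adjusted p = 0.231). The next were AT3G49960, AT1G02810, AT2G39040 and AT4G33440, at distances of 0.16 to 0.24. Their log2 changes were 0.82 ± 0.28, 0.79 ± 0.24, 0.91 ± 0.38 and 0.86 ± 0.39, and their adjusted p in limma was 0.225 to 0.421. XTH19 and these 4 loci were at log2 changes of 1.16 to 1.51 without wild type replicate 1. Without wild type replicate 2 they were at 0.27 to 0.45. All 5 were chosen for their likeness to RCPG and are not independent support for its difference.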

How the data were processed

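Per the submitters' processing notes, the authors made the deposited intensity values with MAS5, whose version was not given in the sources used. Values are linear intensities per probe set, and scanner files were not analysed here. Signals were taken to log2 with no pseudocount. The 64 control probe sets were left out, and 13648 of 22746 others were kept, those with a mean log2 signal at or above the 40th percentile (59.4). The genotype test was two-sided and used lmFit and eBayes of limma 3.58.1 (R 4.3.3) with a trended variance prior, and p-values were adjusted by Benjamini-Hochberg over all kept probe sets. The fit was tested on simulated data. GEO's platform annotation names 1 gene for 13513 probe sets, and symbols come from the RefSeq gene table (TAIR10.1), with names for RCPG, PASPA3, EXI1 and DMP4 from the definition of the set. No gene coordinates are given, since the files name no build. The design text calls the samples biological replicates, and 4 arrays limit the precision. All 5 members are named, all measured genes of lists of up to 8, and otherwise the 3 highest and 3 lowest. The brightest probe set stands for a gene. Members and lists were chosen with earlier results of these data known. Alternatives were other filters, pseudocounts, normalizations and variance priors, an unmoderated test, a replicate block, samples left out, and a fit without the chromosome 1 stretch. The Bacillus gauge of background was added after the data had been seen.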

Additional observations from a re-analysis of the deposited data

How the results depend on the processing

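No test of the 5 genes changed direction under another filter, pseudocount, normalization or variance prior, and 0 of them passed in those fits. RCPG, PASPA3 and EXI1 could not be fitted with the filter at the median, which drops them. The number of called probe sets was 310, and it was 116 without a trend in the variance prior, 105 without the chromosome 1 stretch, and 0 with an unmoderated test (1371 at an unadjusted p under 0.05). With 1 sample left out it ran from 14 to 770. Log2 changes then ran from 0.49 to 1.40 for RCPG, -0.12 to 0.43 for PASPA3, -0.10 to 0.26 for SCPL48, -0.21 to 0.46 for EXI1 and -0.22 to 0.20 for DMP4. The cause was not tested. In related genes whose sign turned, these ranges were -0.40 to 0.25 for BETA-VPE, -0.19 to 0.11 for AT1G14220, -0.084 to 0.025 for AT1G11910, -0.14 to 0.21 for AT3G20015, -0.20 to 0.33 for AT3G52500, -0.41 to 0.093 for AT1G02460, -0.032 to 0.30 for AT1G80170, -0.13 to 0.59 for AT3G59850 and -0.67 to 0.27 for SCPL28. They were -0.030 to 0.61 for EXPA7, -0.29 to 0.0048 for GSO1 and -0.055 to 0.022 for RCA.

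The replicate numbers are shared between genotypes, but nothing in the labels says that they mark a common batch or day. Over the kept probe sets the difference of replicate 1 and 2 in nlp7-1 correlated with that in wild type at 0.44, from 2 pairs. With the replicate block 1290 of the 13648 kept probe sets were called, 4.16 times as many as without it. The log2 change of RCPG, still 0.94, then passed (limma adjusted p = 0.0125), while the other 4 genes did not. RCPG entered this fit only through its nlp7-1 samples, and the block was not fitted without the filter, so its passing is no separate support. Among the 39 related genes tested by name the block also brought 11 past the threshold. They were AT1G09750, AT3G54400 and AT5G10770 (limma adjusted p = 0.00368, 0.00100 and 0.0234), SCPL31 (0.00591), GH9C1 (0.0243), LHCB4.1 (0.00324) and the 5 genes nearest to RCPG in pattern (0.00110 to 0.0122). Those 5 were picked for a pattern close to that of RCPG, so their passing with it adds no separate result.

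Background changed the ratios of signal to background. Over the 40th percentile the geometric means of the 4 samples were 1.26 for RCPG, 1.56 for PASPA3, 13.8 for SCPL48, 1.19 for EXI1 and 2.73 for DMP4. Over the median of the array they were 0.758, 0.940, 8.30, 0.713 and 1.64 in the same order of genes. Over the highest of the flower, pollen and seed loci they were 2.01, 2.49, 22.0, 1.89 and 4.34. Over the highest Bacillus control they were 3.07, 3.81, 33.6, 2.89 and 6.64.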

Other observations

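The genes around the 5 on the chromosomes were read as a further description. For each gene the 5 nearest kept and named genes on either side were taken in the order of the RefSeq gene table, 10 in all. Around RCPG, from AT1G65280 to AT1G65900, the median log2 change was -0.04 (range -0.47 to 0.30). None of these 10 neighbours was called, against 2.27% of all kept probe sets. Wild type replicate 2 was the lowest sample in 0 of 10, against 30.7% of all kept probe sets. Around PASPA3 and EXI1 it was the lowest in 3 of 10 each, around DMP4 in 2 of 10 and around SCPL48 in 1 of 10. The median log2 change of the neighbours was -0.02 for PASPA3, 0.08 for SCPL48, 0.07 for EXI1 and -0.06 for DMP4. Of these neighbours 0 were called, against 2.27% of all kept probe sets.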
